A study of Mus musculus with 4 samples.

Results

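Haemoglobin transcripts were followed here through 9 globin genes of the mouse in spleen cells of wild-type and Trim21-/- mice, all exposed to UVB. The members are the adult alpha genes Hba-a1 and Hba-a2, the adult beta genes Hbb-bs and Hbb-bt, the theta genes Hbq1a and Hbq1b, and the embryonic genes Hba-x, Hbb-bh1 and Hbb-y. They were listed by name, with earlier results of these data known, and were matched by Ensembl identifier among 25509 gene rows. Ahsp, which encodes the chaperone of free alpha globin, was not analysed here. The samples were suspensions of spleen cells from mice labelled WT (wild type, 2 libraries) or Trim21 KO (knockout, 2 libraries), and every library is labelled as exposed to UVB. Mice were 8 weeks old, had a shaved back and received UVB at 100 mJ/cm2, and the labels name 1 or 3 weeks of exposure without saying which applies to these mice. No source used here gives the strain, the deleted exons or the number of mice behind each library, and unexposed mice were not analysed here. The labels do not say how many mice stand behind a genotype, but its libraries differ in sex-linked Xist RNA (values below) and so are not repeats of 1 RNA sample.

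Haemoglobin is a tetramer of alpha-type and beta-type chains, each holding a haem, and red cell precursors make the chains in balance because unpaired chains precipitate. The alpha-type genes lie together in the order Hba-x (embryonic zeta), Hba-a1, Hbq1b, Hba-a2 and Hbq1a, and the beta-type genes lie together with embryonic epsilon-type (Hbb-y) and beta-h1 (Hbb-bh1) genes beside the adult ones. The mouse spleen is a site of red cell formation in the adult, most of all under stress, and its red pulp also removes old red cells. In bulk RNA, fewer cells of a type and less RNA per cell cannot be told apart.

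The promoters of the adult and embryonic genes are shown because genes of both clusters were counted at higher levels in the same libraries. Each line is the 120 bases before the RefSeq start site on GRCm38.p6, written 5′ to 3′ on the gene's strand. Capitals mark 5 motifs searched on both strands: CACCC (the core bound by KLF1), CCAAT (a common promoter box), TATAA (the letters of a TATA box), ATAAA (a variant of it, which can overlap with it) and GATAA (the core bound by GATA factors).
Hba-a1 (chr11:32283552-32283671, plus strand): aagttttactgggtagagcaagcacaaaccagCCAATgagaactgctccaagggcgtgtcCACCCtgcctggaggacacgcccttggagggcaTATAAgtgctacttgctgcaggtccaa
Hbb-bs (chr7:103827929-103828048, minus strand): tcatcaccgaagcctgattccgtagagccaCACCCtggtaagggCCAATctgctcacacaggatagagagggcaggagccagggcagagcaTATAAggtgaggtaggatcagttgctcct
Hbb-bt (chr7:103813924-103814043, minus strand): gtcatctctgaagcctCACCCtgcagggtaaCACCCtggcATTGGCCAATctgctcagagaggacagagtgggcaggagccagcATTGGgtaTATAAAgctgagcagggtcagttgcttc
Hba-x (chr11:32276480-32276599, plus strand): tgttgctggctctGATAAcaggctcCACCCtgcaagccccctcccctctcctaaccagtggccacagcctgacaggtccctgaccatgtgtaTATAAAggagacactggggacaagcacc
Hbb-y (chr7:103853208-103853327, minus strand): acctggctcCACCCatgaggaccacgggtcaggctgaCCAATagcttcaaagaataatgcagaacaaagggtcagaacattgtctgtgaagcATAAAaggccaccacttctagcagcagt
Hbq1b (chr11:32286844-32286963, plus strand): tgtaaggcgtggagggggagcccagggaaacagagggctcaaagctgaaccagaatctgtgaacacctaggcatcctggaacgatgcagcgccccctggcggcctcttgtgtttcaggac

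Of 8 member promoters in the RefSeq table, 6 held CACCC in this window (31.7% of all 32851 promoters of the table did). CCAAT was in 5 of 8 (21.3% of all) and TATAA in 5 of 8 (11.8% of all). ATAAA was in 3 of 8 (20.2% of all), and GATAA was in 1 of 8, that of Hba-x (10.5% of all). CACCC began 60 bases before the start in Hba-a1, 90 in Hbb-bs, 104 and 89 in Hbb-bt, 95 in Hba-x and 111 in Hbb-y. The theta genes Hbq1a and Hbq1b held none of the 5 motifs in these 120 bases. The Hba-a1 and Hba-a2 promoters shared an unbroken run of 297 bases out of 300 around the start, while those of Hbb-bs and Hbb-bt shared at most 14. A match to such short letters is a description of the sequence and not a mapped binding site.

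The adult pairs are also shown at their only coding difference, because it limits how well reads can be assigned. In GENCODE M21 the coding sequences of Hba-a1 and Hba-a2, 426 bases without the stop codon, differ by C381T. Those of Hbb-bs and Hbb-bt, 441 bases, differ by C417T. Positions count from 1 at the first base of the start codon, the first-named gene has the first base, and the capital below marks the position.
Hba-a1 (coding bases 361 to 401): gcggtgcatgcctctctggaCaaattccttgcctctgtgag
Hba-a2 (coding bases 361 to 401): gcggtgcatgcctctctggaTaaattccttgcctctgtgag
Hbb-bs (coding bases 397 to 437): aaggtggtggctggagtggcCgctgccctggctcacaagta
Hbb-bt (coding bases 397 to 437): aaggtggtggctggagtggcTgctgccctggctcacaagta
Reads were 75 bases long. Of the 480 windows of 75 bases in the Hba-a2 transcript, 389 (81.0%) also occur in Hba-a1, and 356 of the 629 in Hbb-bt (56.6%) occur in Hbb-bs. For the theta pair, 154 of 488 windows in Hbq1b (31.6%) occur in Hbq1a. The embryonic transcripts shared 0 such windows with the adult gene of their cluster that was compared with them (Hba-a1 or Hbb-bs). The split of counts within a pair is therefore uncertain, and each pair is also given as a sum.

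Library totals were 39501119 and 36173694 counts for wild type against 38383781 and 41924885 for knockout. Levels below are CPM scaled by trimmed mean of M values (TMM, which corrects a library's size for its composition). Unless another test is named, adjusted p values come from edgeR's quasi-likelihood test with Benjamini-Hochberg adjustment over 13532 genes, and a gene passed when that value was under 0.05. Trim21 itself was counted 1237 and 1912 times in wild-type libraries and 345 and 882 times in the knockout ones, so its transcript was lower but not absent (-1.02 ± 0.42 on the log2 scale, adjusted p 0.17). Xist, the RNA of the inactive X of females, was at 0.045 and 0.039 CPM in the libraries numbered 1 and at 932 and 288 CPM in those numbered 2, so the numbers also part the libraries by this sex-linked RNA. All 10 neutrophil markers passed as higher in knockout, beside 5.90% of all tested genes. Their summed level was 351 to 863 CPM in wild type and 25459 to 27443 in knockout. The 8 B cell markers summed to 4920 to 5742 CPM in wild type and 2477 to 3108 in knockout, and the 8 red pulp macrophage markers to 774 to 866 and 1207 to 1481, so spleen cell types were present in every library. The part that these cell type differences have in the globin values was not tested.

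Adult alpha globin was among the most abundant transcripts and was higher in both knockout libraries than in both wild-type libraries, without passing the test. Hba-a2 (ENSMUSG00000069917, chromosome 11, 32296489 to 32297298, plus strand) had 26177 (library 1) and 10622 CPM (library 2) in wild type, and 171242 (library 1) and 50045 CPM (library 2) in knockout. Hba-a1 (ENSMUSG00000069919, chromosome 11, 32283511 to 32284465, plus strand) had 16183, 5513, 107266 and 29020 CPM in the same order. For both genes knockout library 1 was highest, wild-type library 2 lowest, and the groups did not overlap. Knockout library 2 lay closest to wild-type library 1 (50045 against 26177 CPM for Hba-a2). Summed over the pair, the level was 29248 ± 18545 CPM for wild type against 178787 ± 141028 CPM for knockout (SD, n = 2). The log2 fold change of the sum was 2.61 ± 1.12 (SE, adjusted p 0.18, edgeR). Library 1 exceeded library 2 by 1.39 on the log2 scale in wild type and by 1.82 in knockout, so libraries of a single genotype lay far apart as well.

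Adult beta globin followed the same order of libraries. Hbb-bs (ENSMUSG00000052305, chromosome 7, 103826534 to 103828096, minus strand), the more abundant of the pair, stood at 22974 and 10910 CPM in the wild-type libraries and at 125252 and 46343 CPM in the knockout libraries. Hbb-bt (ENSMUSG00000073940, chromosome 7, 103812524 to 103813996, minus strand) stood at 8227 and 4120 CPM, then 54384 and 19151 CPM, in the same order. Again both knockout libraries lay above both wild-type libraries, with knockout library 2 closest to wild-type library 1. The pair summed to 23116 ± 11435 CPM for wild type against 122565 ± 80711 CPM for knockout (SD, n = 2), a log2 fold change of 2.41 ± 1.02 (SE, adjusted p 0.18, edgeR).

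With all 4 adult genes as 1 sum the log2 fold change was 2.53 ± 1.12 (SE, adjusted p 0.19, edgeR), 5.76-fold. Within libraries of the same number it was 2.64 between libraries 1 and 2.21 between libraries 2. The estimate ranged from 1.47 without knockout library 1 to 3.26 without wild-type library 1, and it did not pass in any of these leave-one-out fits. The DESeq2 Wald test gave 2.53 with an adjusted p of 3.8e-04. Scaling by library totals alone, an alternative added after seeing the data, gave 1.89 with an adjusted p of 0.015 by edgeR. The sum did not pass by limma-voom (2.42, adjusted p 0.15). By edgeR it also did not pass with DESeq2 size factors (adjusted p 0.19), with no filter (0.16) or with library sizes taken without haemoglobin rows (0.19). The call thus changed with the tool and the scaling. A fit with the library number as a term, which also parts the libraries by Xist, gave 2.43 with an adjusted p of 3.3e-16 by edgeR, and all 4 adult genes passed in it. That fit has 1 residual degree of freedom and passed 42.2% of all genes tested. The direction was the same in all of these fits.

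**Figure D1:**
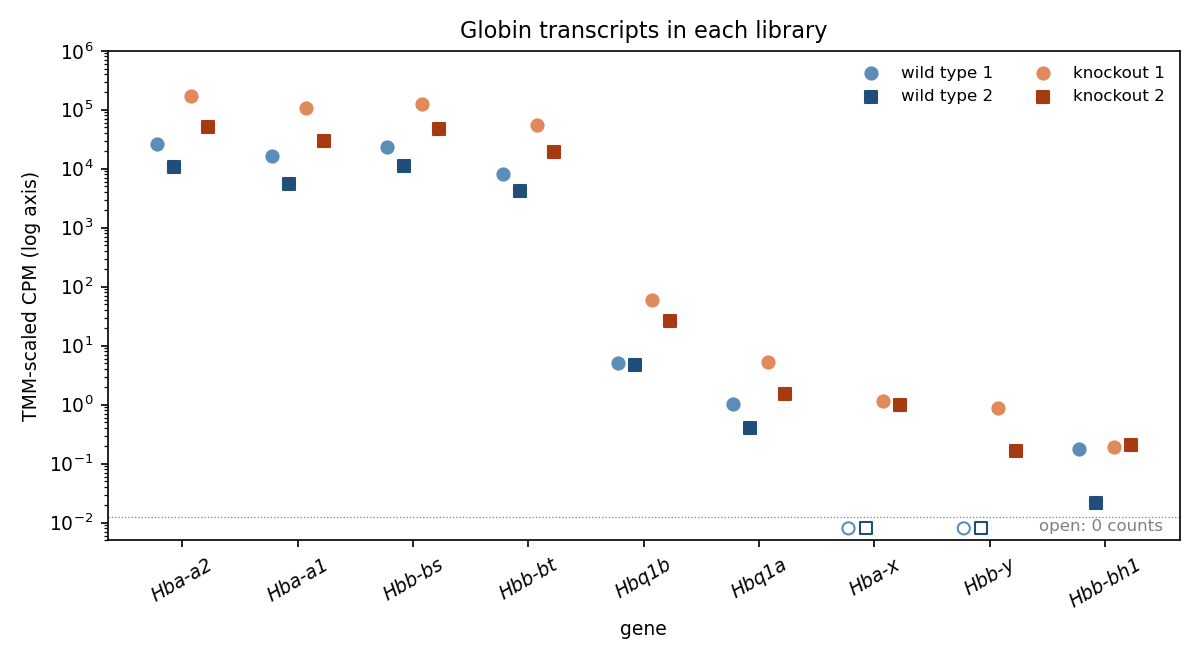
TMM-scaled CPM (log axis) of each of the 9 globin genes in each library, 1 point per library, circles for libraries 1 and squares for libraries 2, with open symbols below the dotted line for 0 counts. In the 4 adult genes the points keep one order from knockout library 1 to wild-type library 2, and Hba-x and Hbb-y have 0 counts in both wild-type libraries.

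Of the 9 genes, 7 had enough counts to be tested, and 2 passed as higher in knockout, Hbq1b and Hba-x, against 5.90% of all tested genes passing as higher (0.392% as lower, 6.29% in either direction). Hba-x reached the test only through its knockout counts. In CPM, both knockout libraries lay above both wild-type libraries for the 7 tested members, a pattern held by 30.3% of tested genes (the opposite by 30.1%). Near-identical members share reads, so the 7 are not independent cases of it. Hbb-y and Hbb-bh1, which were not tested and so lie outside that background, had the pattern as well. For Hbb-bh1 the pattern holds for the scaled level only, and its raw counts overlapped. The log2 fold changes of the 4 adult genes lay between 2.34 (Hbb-bs) and 2.65 (Hba-a1), higher than 93.7% to 95.1% of tested genes, where the median was -0.056.

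As a share of all counts in a library, a measure that no scaling factor touches, the wild-type libraries gave 8.25% and 4.03% to the 9 globin rows and the knockout libraries 30.7% and 14.9%. The 95% Wilson interval of the first was 8.24% to 8.26%. Such intervals hold counting error within a single library alone, with reads taken as independent, and not the spread between libraries. Reads that carry no molecular identifier are not independent molecules, so the intervals are if anything too narrow. The knockout share was 3.72 times the wild-type share between libraries 1 and 3.70 times between libraries 2. Within a genotype, library 1 held 2.05 times the share of library 2 in wild type and 2.06 times in knockout. The share thus differed by similar factors in both strata and in both genotypes. The mean shares were 6.14% ± 2.99 and 22.8% ± 11.2 (SD, n = 2), and with 2 libraries against 2 an exact two-sided permutation test cannot go below the p of 0.333 that these gave. By raw counts Hba-a2, Hbb-bs, Hba-a1 and Hbb-bt ranked 1, 2, 3 and 4 among all genes in both knockout libraries, and 1, 2, 4 and 11 in wild-type library 1 and 5, 4, 10 and 13 in wild-type library 2.

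**Figure D2:**
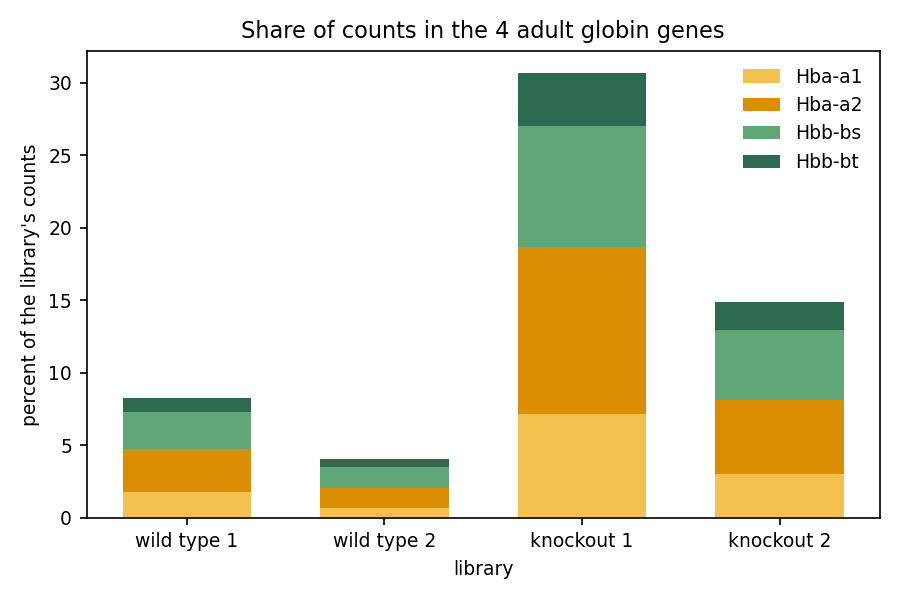
Percent of each library's counts in Hba-a1, Hba-a2, Hbb-bs and Hbb-bt, stacked, 1 bar per library. The bars reach 8.25% and 4.03% for wild type against 30.7% and 14.9% for knockout.

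The balance of alpha to beta chains differed more between library numbers than between genotypes. Adult alpha counts per adult beta count were 1.36 (library 1) and 1.07 (library 2) for wild type against 1.55 and 1.21 for knockout. Per kilobase of annotated transcript the ratios were 1.46, 1.16, 1.67 and 1.30. The groups overlapped, since wild-type library 1 lay above knockout library 2. Within a library number the knockout ratio was 1.14 times (libraries 1) and 1.12 times (libraries 2) the wild-type ratio, while library 1 was 1.26 and 1.28 times library 2 within wild type and knockout. The exact two-sided permutation p for the genotypes was 0.667.

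Within the beta pair, Hbb-bt took a larger part in knockout. Its share of Hbb-bs plus Hbb-bt counts was 26.4% and 27.4% for wild type against 30.3% and 29.2% for knockout, or 26.9% ± 0.739 and 29.8% ± 0.731 (SD, n = 2). The groups did not overlap, and leaving out any 1 library kept the difference between 2.34 and 3.39 percentage points. An exact two-sided permutation test gave its smallest possible p, 0.333. The Wilson interval of the least deeply counted share, in wild-type library 2, was 27.3% to 27.5%. It holds counting error alone and not the uncertainty of splitting reads that the pair shares. Because the coding sequences differ only by C417T, this share rests on reads over that base and over the untranslated ends. The beta cluster lies on the chromosome of the targeted gene, with 1.25 Mb between Trim21 and Hbb-bt on GRCm38. No source used here gives the strain origin of the DNA around the deleted gene. In the alpha pair, on chromosome 11, the Hba-a2 share was 61.8% and 65.8% for wild type against 61.5% and 63.3% for knockout, and the groups overlapped.

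**Figure D3:**
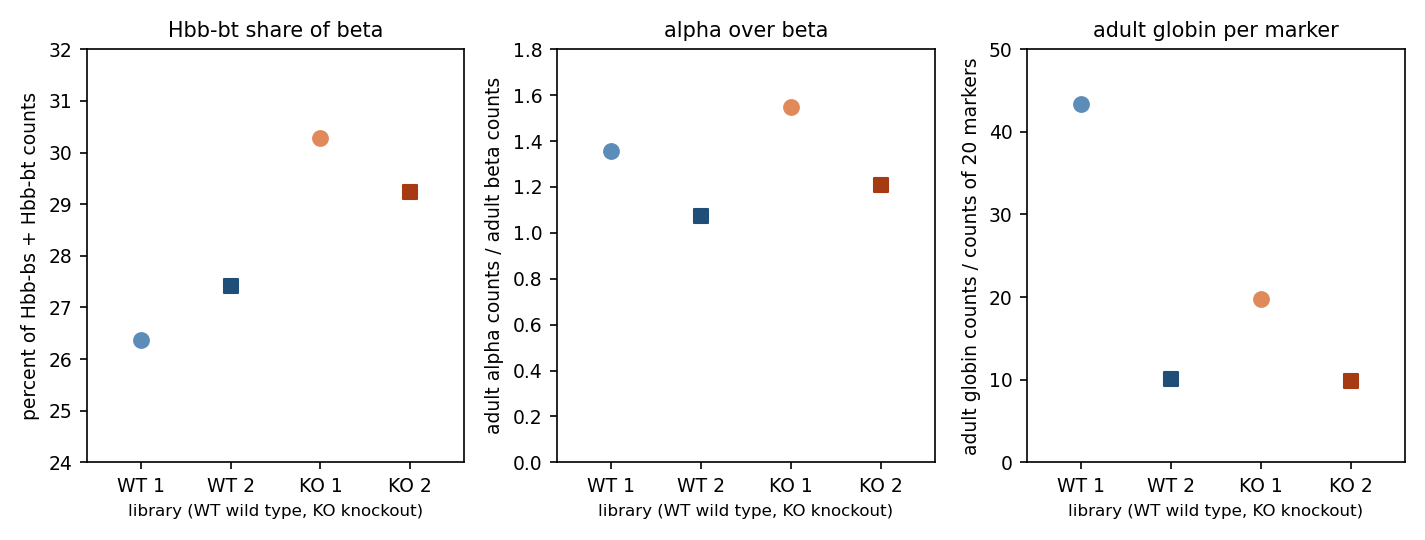
Left, Hbb-bt as percent of Hbb-bs plus Hbb-bt counts (axis not from 0), middle, adult alpha counts over adult beta counts, and right, adult globin counts over the summed counts of 20 erythroid marker genes, 1 point per library. The Hbb-bt share separates the genotypes (26.4% and 27.4% against 30.3% and 29.2%), while the other 2 ratios are higher in library 1 than in library 2 of each genotype.

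Theta globin, an alpha-type chain transcribed in erythroid cells and not known to be part of a haemoglobin, was the globin whose rise passed the test with counts in every library. Hbq1b (ENSMUSG00000073063, chromosome 11, 32286965 to 32287784, plus strand) was counted 224 and 218 times in the wild-type libraries and 1521 and 1123 times in the knockout libraries, at 5.06, 4.67, 59.2 and 26.0 CPM. It rose by 3.13 ± 0.52 on the log2 scale (SE, adjusted p 0.017, edgeR), from 4.86 ± 0.276 to 42.6 ± 23.5 CPM (SD, n = 2). The wild-type libraries were nearly equal, differing by 0.12 on the log2 scale where Hba-a1 differed by 1.55. In all 12 alternative fits of its row Hbq1b passed, with log2 fold changes of 1.96 to 3.61. Its paralogue Hbq1a (ENSMUSG00000020295, chromosome 11, 32300069 to 32300873, plus strand) was scarcer, at 45 and 19 counts, then 137 and 65, in the same order. Its log2 fold change was 2.25 ± 0.80 (SE, adjusted p 0.13, edgeR), and by edgeR it passed without wild-type library 1 (3.04, adjusted p 0.0067), without knockout library 2 (2.91, adjusted p 0.020) and with the library number as a term (2.15, adjusted p 0.00055). By DESeq2 the adjusted p of Hbq1a was 0.026. The pair summed rose by 3.05 ± 0.53 (adjusted p 0.019, edgeR). Theta counts per 100000 adult alpha counts were 14.3 and 31.4 for wild type against 23.2 and 34.8 for knockout, so relative to alpha globin the groups overlapped.

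Embryonic globins, which are the chains of yolk sac red cells, were near the limit of detection. Hba-x (ENSMUSG00000055609, chromosome 11, 32276400 to 32278116, plus strand) was counted 0 times in both wild-type libraries and 30 and 43 times in the knockout libraries, at 1.17 and 0.995 CPM. Taking 3 counts over both wild-type libraries as the limit that 0 allows, it was at least 32.2-fold higher over both knockout libraries together. The adjusted p was 0.018 by edgeR. Because the gene reached the test only through its knockout counts, that p is a description. Hbb-y (ENSMUSG00000052187, chromosome 7, 103851749 to 103853216, minus strand) was counted 0 times in both wild-type libraries and 23 and 7 times in the knockout libraries, at 0.895 and 0.162 CPM. Over both knockout libraries together it was at least 13.2-fold higher by the same limit, a figure carried mostly by knockout library 1. Hbb-y did not reach the low-count filter. With no filter its adjusted p was 0.024 by edgeR, in a fit where 7.36% of all tested genes passed as higher. It entered that fit through its knockout counts alone, so that p too is a description. Hbb-bh1 (ENSMUSG00000052217, chromosome 7, 103841637 to 103843164, minus strand) was counted 8 and 1 times, then 5 and 9 times. The summed ratio of Hbb-bh1 was 2.06 with an exact 95% counting interval of 0.829 to 5.38, so no difference was detectable at this depth.

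Relative to the adult chains, the embryonic transcripts stayed rare. Hba-x had 4.19 and 12.6 counts per 1000000 adult alpha counts in knockout libraries 1 and 2. Both wild-type libraries together allow at most 1.14. Both knockout libraries together had 6.91, at least 6.06 times that pooled limit, with knockout library 1 closer to it than knockout library 2. For a single wild-type library the limit is looser. Hbb-y had 4.98 and 2.47 counts per 1000000 adult beta counts in knockout, against at most 1.44 over both wild-type libraries together. This limit too is looser for a single wild-type library, and the value of knockout library 2 rests on 7 counts. Hbb-bh1, unlike Hba-x and Hbb-y, was counted in wild type. It had 5.79 and 1.42 counts per 1000000 adult beta counts for wild type against 1.08 and 3.18 for knockout, and its groups overlapped. The single highest Hbb-bh1 value was thus in wild-type library 1, where it rests on 8 counts.

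Per kilobase of transcript, the order of the adult genes was Hba-a2, Hbb-bs, Hba-a1 and Hbb-bt in every library. In knockout library 1 the levels were 309101, 199446, 153457 and 77360 CPM per kilobase. In wild-type library 2 they were 19173, 17373, 7886 and 5861, where Hba-a2 and Hbb-bs were nearly level. Hbq1b had 8.30 to 8.998 CPM per kilobase in wild type and 46.3 to 105 in knockout, Hbq1a 0.673 to 8.83 over all libraries, and the embryonic genes 0 to 1.46.

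The erythroid setting of these values was described with gene lists whose members were counted as passing or not. Of 28 tested globin gene regulators, 7 rose and none fell, with a median log2 fold change of 0.72, beside 5.90% of all tested genes passing as higher and a median of -0.056. The 7 were Klf1 (activator of the adult beta gene through CACCC), Gata1 and its cofactor Zfpm1, Tal1, Gfi1b, and Nfe2 and Mafg, partners in the NF-E2 dimer. Gfi1b, a repressor needed for red cell maturation, went from 6.12 and 9.995 CPM in wild type to 171 and 99.4 in knockout (4.07 ± 0.51, adjusted p 0.011, edgeR). Zfpm1 went from 75.4 and 70.3 CPM to 509 and 332. Without wild-type library 1, 11 regulators passed as higher, and so did 16.4% of all genes tested in that fit. With the library number as a term, 16 passed as higher and 2 as lower, beside 22.4% and 19.7% of all genes. The embryonic globin silencers Bcl11a, Zbtb7a and Sox6 did not pass. Their levels are those of all spleen cells together, where the summed B cell markers were lower in knockout. The part of other cell types in these levels was not tested. Bcl11a stood at 104 and 168 CPM in wild type, 78.1 and 93.3 in knockout (-0.67 ± 0.41, adjusted p 0.32, edgeR), and Zbtb7a had 101, 154, 122 and 140 CPM. Sox6 had 1.67, 26.5, 85.3 and 78.3 CPM (2.54 ± 1.03, adjusted p 0.16), with wild-type library 1 far below the other 3. Igf2bp1 and Lin28b, of the fetal programme, had 0 counts in all 4 libraries.

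Most genes of haem supply were higher in knockout. Of 20 tested, 14 rose and none fell, with a median log2 fold change of 2.82, beside 5.90% of all tested genes passing as higher. Alad, an early enzyme of haem synthesis, went from 34.4 and 30.05 CPM in wild type to 682 and 311 in knockout (3.94 ± 0.55, adjusted p 0.012, edgeR). Fech, the enzyme that inserts iron, rose by 2.40 on the log2 scale (adjusted p 0.040, edgeR). Eif2ak1, the kinase that slows globin translation when haem is short, rose by 2.41 ± 0.50. Alas2, the erythroid enzyme that starts the pathway, resembled the adult globins: 1097 and 754 CPM in wild type, 4617 and 2047 in knockout, and 1.85 ± 0.66 with an adjusted p of 0.13. Alas2 was also the most abundant gene of the list in every library.

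The adult globins and the erythroid precursor markers had different orders among the wild-type libraries. The 20 marker genes, globins left out, summed to 1696 and 3075 CPM for wild type against 23216 and 14685 for knockout. Of the 20, 12 passed as higher, beside 5.90% of all tested genes. Wild-type library 1, which had the more globin of the pair, had the lower marker sum. Adult globin counts per marker count were 43.4 and 10.1 in wild-type libraries 1 and 2 and 19.7 and 9.84 in knockout libraries 1 and 2. The groups overlapped, and the sign of the difference between genotypes turned without wild-type library 1 (from -12.0 to 4.65). Between libraries 2 the ratio was almost the same in both genotypes (0.971 times), and between libraries 1 it was 0.455 times as large in knockout. Per count of Alas2, adult globins were higher in both knockout libraries, 99.2 and 70.6 against 67.1 and 41.3. Per count of Slc4a1, the band 3 anion exchanger of the red cell membrane, they were 375 and 35.2 in wild-type libraries against 82.9 and 35.9, with wild-type library 1 far above the others. Between libraries 1 the knockout value was 0.221 times the wild-type value per Slc4a1 count and 1.48 times per Alas2 count. Between libraries 2 it was 1.02 and 1.71 times. The direction thus depended on the erythroid gene taken as base between libraries 1, while between libraries 2 no ratio was clearly lower in knockout. Transcript length, described below, was not adjusted for in these ratios.

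**Figure D4:**
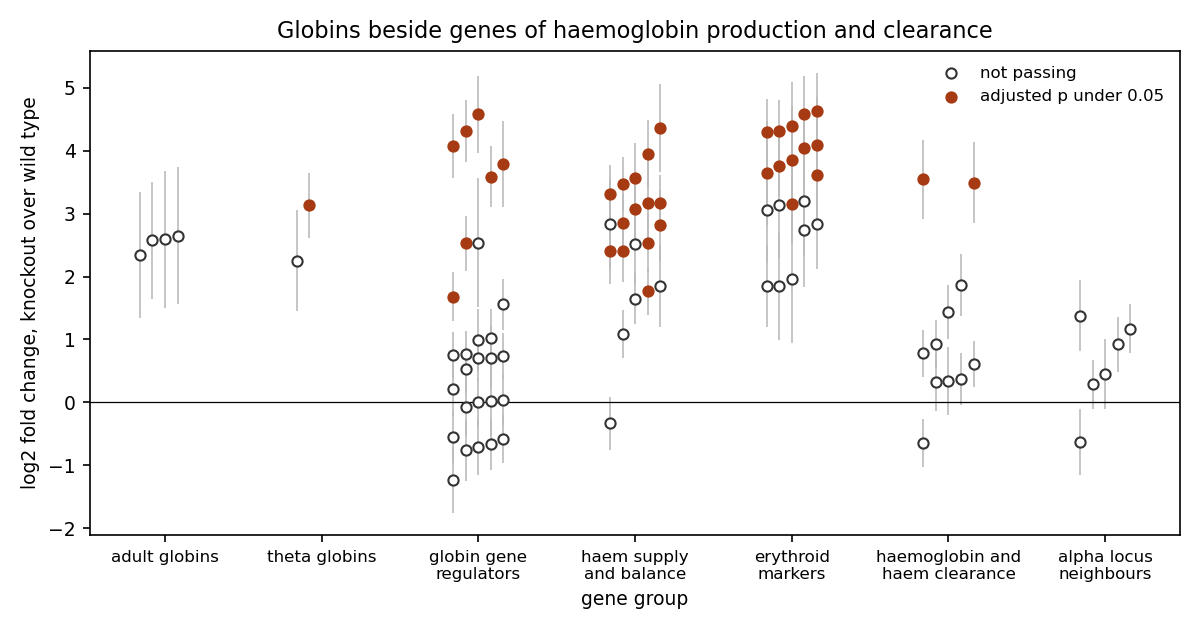
Log2 fold change of knockout over wild type (points, bars are SE) for tested genes of each group, filled where the adjusted p was under 0.05 by edgeR. The adult globins sit between 2.34 and 2.65 with wide bars and none filled, and 14 of 20 genes of haem supply are filled.

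On the clearance side, 2 of 11 tested genes rose and none fell, with a median log2 fold change of 0.78, beside 5.90% of all tested genes passing as higher. Blvrb, a biliverdin and flavin reductase abundant in red cells, went from 133 and 102 CPM in wild type to 1920 and 818 in knockout (3.54 ± 0.63, adjusted p 0.021, edgeR). Hp, which encodes the haemoglobin-binding plasma protein haptoglobin, went from 57.1 and 16.9 CPM to 462 and 370 (3.49 ± 0.65, adjusted p 0.024). Without wild-type library 1 or without wild-type library 2, 4 clearance genes passed as higher, beside 16.4% and 10.8% of all genes in those fits. Hp is also a product of granulocytes, whose markers passed as stated above, and their part in its level was not tested. Genes of iron-recycling macrophages did not pass: Hmox1, the haem oxygenase, had 122, 127, 188 and 240 CPM, Cd163, a receptor for haptoglobin with haemoglobin, had 8.67, 26.0, 21.9 and 21.9, and Spic had 31.3, 39.5, 56.0 and 51.6. Hpx, for the haem-binding protein haemopexin, had 1 to 4 counts.

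None of the 6 genes beside the alpha cluster passed by edgeR. Nprl3, whose introns hold the enhancers of the alpha genes, stood at 22.8 and 21.1 CPM in wild type, 57.7 and 41.2 in knockout (1.17 ± 0.39, adjusted p 0.11, edgeR). Snrnp25 (1.38), Mpg (0.93), Sh3pxd2b (0.45), Rhbdf1 (0.29) and Il9r (-0.63) were further from the threshold. At an unadjusted p under 0.05, 2 of 6 were higher, Nprl3 and Snrnp25, beside 15.5% of all tested genes, and 0 passed by DESeq2 or limma-voom. Without wild-type library 1, 2 of 6 passed as higher, beside 16.4% of all genes. With the library number as a term, 3 passed as higher and 1 as lower, beside 22.4% and 19.7%. With so few genes these counts are not read as differing from the background.

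Transcript length moved with these comparisons, and adult globin transcripts are short (554 to 703 bases). Among 889 tested genes with a transcript under 1000 bases, the median log2 ratio was 0.998 for wild-type library 1 over 2, 0.70 for knockout library 1 over 2, and 0.75 for knockout over wild type. Among 4355 genes over 4000 bases the same medians were -0.69, -0.38 and -0.60. Short genes were thus higher in libraries 1 than in libraries 2, and higher in knockout than in wild type, as the adult globins were. With a smooth length trend removed from each library, an alternative chosen after seeing the data, the adult sum had a log2 fold change of 1.58 (adjusted p 0.053, edgeR) in place of 2.53, and Hbq1b 1.96 (adjusted p 0.019). In that fit 4 members passed as higher, Hba-a1, Hbb-bt, Hbq1b and Hba-x, beside 11.5% of all tested genes. The log2 fold changes of the members stayed above 0 in every fit made.

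**Figure D5:**
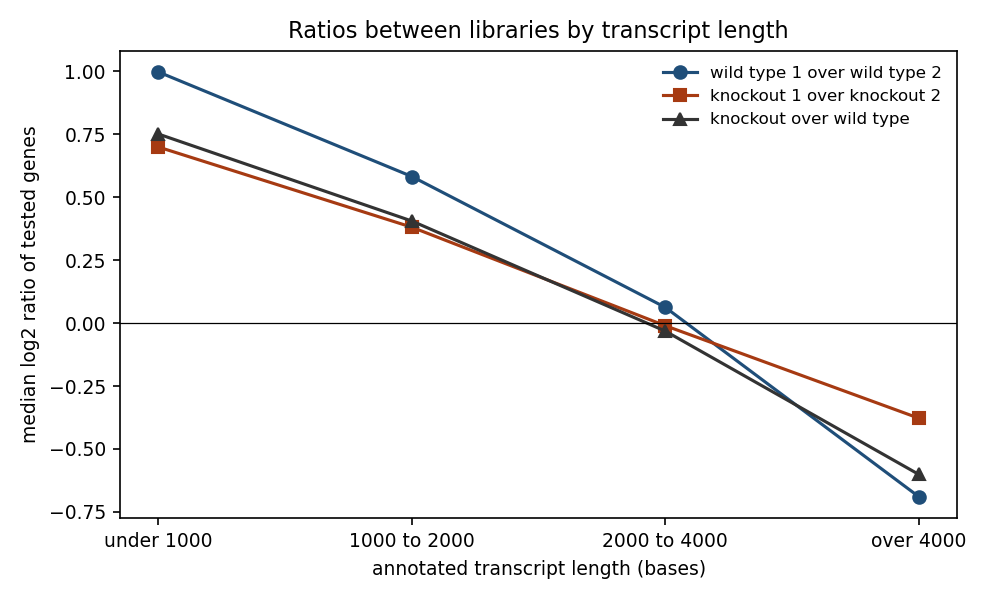
Median log2 ratio of tested genes by annotated transcript length, for library 1 over library 2 within each genotype and for knockout over wild type. All 3 lines fall with length, from 0.998, 0.70 and 0.75 under 1000 bases to -0.69, -0.38 and -0.60 over 4000 bases.

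A search was made for the genes whose values over the 4 libraries lay nearest to those of the summed adult globins. Among 4966 candidates the 5 nearest, by Euclidean distance between centred log2 CPM over the 4 libraries, were Nme3 (0.34), Tmem256 (0.38), Mpst (0.38), Gpx4 (0.43) and Gpx1 (0.44). Gpx1, the glutathione peroxidase of red cells and many other tissues, stood at 907 and 424 CPM in wild type, 5505 and 2548 in knockout. None of the 5 passed by edgeR, with adjusted p from 0.051 to 0.080. A likeness over 4 libraries is a description and carries no test.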

How the data were processed

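RNA of spleen cell suspensions (70 µm filter) was depleted of ribosomal RNA from 300 ng of total RNA, made into stranded libraries and read as 75 bp single ends, per the labels' protocols. No source used here says whether red cells were lysed. Estimated counts for each Ensembl gene, as deposited by the authors, were all whole numbers (0 values off a whole number), so rounding before testing changed none. RSEM 1.2.25, STAR 2.5.0 and SAMtools 1.18 are named in the submitters' processing notes, as is GRCm38, without roles. Which annotation and strand setting were used for counting is not stated in them.

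The 92 spike-in rows held 0 counts and were left out. Of 25509 gene rows, 25251 matched GENCODE M21 (GRCm38) by identifier. Counts were fitted with edgeR 4.0.16 (R 4.3.3): TMM, filterByExpr, robust quasi-likelihood test, 2 libraries per genotype, 2 residual degrees of freedom, Benjamini-Hochberg over 13532 genes. SE is the log2 fold change divided by the root of F. On simulated data with the same dispersion for every gene, the fit recovered 6% of 2-fold, 62% of 4-fold, 98% of 8-fold and 100% of 16-fold changes. These rates are not those of the adult globins, whose libraries lay far apart within a genotype. Library totals of 36173694 to 41924885 counts set the depth, and a count of 0 was taken to allow 3 counts. Alternatives used DESeq2 1.42.0 and limma 3.58.1, other scalings and filters, each library left out, and transcript-length offsets (longest protein-coding transcript, or longest of any kind where a gene has none; lowess).

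Members and lists were chosen with earlier results of these data known. Named genes were all members, genes of the fixed lists, Trim21, and the 5 genes nearest to the summed adult globins with average log2 CPM of at least 5, predicted genes, pseudogenes and receptor segments left out. Promoters are from RefSeq (GRCm38.p6), with 8 of 10 symbols matched. Titles give both genotypes replicate numbers 1 and 2, without saying that a number marks a shared animal or day.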

Additional observations from a re-analysis of the deposited data

How the results depend on the processing

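Hbq1b passed in every alternative, and all tested members kept a positive log2 fold change in every one. Hba-x also passed in each, but with 0 wild-type counts it reached the tests only through knockout, so this says nothing of its stability. The number of members passing, all as higher, was 2 in the reported fit, 7 by the DESeq2 Wald test and 3 with no filter. It was 6 with library totals alone and 4 with transcript-length offsets. In the same order, 5.90%, 11.6%, 7.36%, 5.78% and 11.5% of all tested genes passed as higher. These shares are the background also for the lists below. The adult sum passed by DESeq2 (2.53) and with library totals alone (1.89, where the median of all genes moved from -0.056 to -0.56), with 1.47 to 3.26 as its range when single libraries were left out. Of all genes, 851 passed, against 2497 by DESeq2, 1768 with no filter, 2158 with library totals alone (782 higher and 1376 lower, against 798 and 53), 2134 with length offsets, and 631 to 4347 with 1 library left out. Clearance genes passing were 4 by DESeq2 and 4 with no filter, and 2 to 4 with 1 library left out. Alpha cluster neighbours passing were 1 with length offsets and 0 to 2 with 1 library left out, and regulators 6 to 11. The haem list ranged from 11 to 18 with 1 library left out.

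The labels do not say that a replicate number marks a shared animal, litter or day. The numbers do part the libraries by Xist and by the length trend, and library 1 minus library 2 correlated at 0.51 between genotypes over genes. With the replicate number as a block, 7 members (all higher), 18 regulators (16 higher, 2 lower), 19 haem genes and 6 clearance genes (all higher), 4 alpha cluster neighbours (3 higher, 1 lower) and 5705 of all genes (3036 higher, 2669 lower) passed, and the adult sum was 2.43 (adjusted p 3.3e-16, edgeR, 1 residual degree of freedom, so this fit leans on spread pooled over genes).

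With 1 library left out, the knockout minus wild-type difference turned for the Hba-a2 share of alpha (from -1.42 to 0.59 percentage points without wild-type library 2; range -3.44 to 0.59), for alpha over beta (0.16 to -0.0083 without knockout library 1; range -0.0083 to 0.33) and for adult globin per erythroid marker (-12.0 to 4.65 without wild-type library 1; range -28.6 to 4.65). The cause was not tested. The haemoglobin share differed by 8.76 to 24.5 percentage points.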

Other observations

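Globins made outside the red cell lineage were at or near 0. Cygb, the cytoglobin of fibroblast-like cells, was counted 25 and 14 times, then 17 and 4 times in the knockout libraries, a log2 fold change of -0.26 with an adjusted p of 0.88 by edgeR. Mb, muscle myoglobin, had 0 counts in all 4 libraries, and Ngb, neuroglobin, had 4, 2, 4 and 0. Mitochondrial genome transcripts took 8.81% and 10.3% of counts for wild type against 3.999% and 5.03% for knockout. The cause of this difference was not tested.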
